A study of Rattus norvegicus with 49 samples.

Results

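The white adipocyte genes examined here are Adipoq, Lep, Plin1, Cidec, Cfd, Fabp4, Retn, Lpl, Pck1 and Fasn, 10 genes that mark fat cells in textbook lists. They were measured in thyroid tissue of male Sprague Dawley rats on Agilent Sureprint G3 arrays (Rat GE 8x60K, one colour), each hybridised with Cy3-labelled cRNA made from 200 ng of total RNA of 1 thyroid. Probes were assigned through their RefSeq accession, and 9 of the 10 genes had a probe, 1 each, among 15148 genes with a probe. No probe was matched to Plin1, so it has no value below. The 49 arrays fall into 13 groups. Young rats were injected with 131I at 5 weeks of age and received 50 kBq with tissue taken 3, 6 or 9 months later, or 0.5, 5 or 500 kBq with tissue taken 9 months later. Adult rats were injected with 50 kBq at 17 weeks of age, and tissue was taken 3, 6 or 9 months later. Untreated rats of 4, 7, 10 and 13 months of age were the controls. Groups held 4 arrays, except 3 arrays in the young 5 kBq group and in the controls of 7 and 13 months. Strain and sex were the same in all groups.

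Fat cells store triglyceride in a lipid droplet and release it as fatty acids and glycerol. They also secrete hormones, among them adiponectin, which raises insulin sensitivity, and leptin, which signals the size of the fat store to the brain. The thyroid lies in connective tissue with fat around it, and the neck of the rat also holds brown fat. Brown fat cells burn fatty acids through Ucp1 and share most of the members with white fat cells, while leptin is the member most typical of white fat. In such bulk tissue, fewer cells of a type and less RNA per cell cannot be told apart.

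Values are log2 of the background-subtracted signal minus the 75th percentile of the array, so 0 is the level of that percentile, and levels of different genes are not compared because each probe has its own brightness. A probe counts as detected where the scanner software marked it well above background. Adipoq, Cidec, Cfd, Fabp4, Retn, Lpl and Fasn were detected on all 49 arrays, Pck1 on 48, and Lep on 28. No spot was saturated. Ucp1 was detected on all 49 arrays, with levels from -1.09 to 6.76 (median 4.82). The name white adipocyte genes is that of the list. Most members are shared with brown fat cells, whose marker Ucp1 was detected on every array. Lep, the member most typical of white fat, was detected on 28 of 49 arrays, and Retn on all 49. Which kind of fat cell the members came from was not tested.

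There were 3 arrays that stood apart from the rest. Replicate 2 of the young 50 kBq group at 3 months was dim, with a 75th percentile of 61.0 against 783 to 4172 on the other 48 arrays and 43.1% of probes detected against 69.2 to 82.5%. Replicate 3 of the same group and replicate 2 of the 7-month controls went against the thyroid label. Thyroglobulin was at 0.14 and -0.69 there, against 6.41 to 7.91 on the 46 arrays other than these 3, and Pax8 and Nkx2-1 were also below every one of those 46 arrays. Replicates 1 and 2 of the 13-month controls were the closest of 1176 pairs of arrays, with 72 probes more than 1 log2 unit apart, and replicates 1 and 2 of the adult 50 kBq group at 6 months came next with 85. The labels do not say that either pair is one animal, and both were also averaged and counted as 1 array. The 13-month controls were low in the skeletal muscle gene Acta1, at 2.99, 2.99 and 3.56 against a median of 6.85 over all arrays. Several, not all, of the results that rest on these arrays are also given without them or with a pair averaged.

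Adipoq, which encodes the hormone adiponectin, ranged from 1.51 to 4.91 over the 49 arrays, a 10.5-fold range, and 1 group, the 4-month controls, spanned nearly all of it. In the controls of 4 months its 4 values were 1.51, 2.26, 3.27 and 4.72, and in the controls of 7 months 3.12, 4.04 and 4.74. The controls of 10 months gave 3.71, 4.23, 4.51 and 4.56, and those of 13 months 2.05, 4.07 and 4.09. The control arrays of 4 months thus held the lowest value of all and one of the highest. After 50 kBq to young rats the values were 2.72, 2.91, 3.40 and 4.33 at 3 months, 1.61, 3.33, 3.74 and 4.19 at 6 months, and 2.79, 3.88, 4.27 and 4.91 at 9 months. At 9 months the young rats given 0.5 kBq had 2.35, 2.42, 4.46 and 4.91, those given 5 kBq 2.60, 3.17 and 4.41, and those given 500 kBq 2.72, 3.02, 3.55 and 4.25. The adult rats had 2.78, 2.83, 3.54 and 3.84 at 3 months, 3.27, 4.02, 4.36 and 4.44 at 6 months, and 3.95, 3.97, 4.16 and 4.51 at 9 months. Group means ran from 2.94 ± 1.39 (SD, n = 4) in the controls of 4 months to 4.25 ± 0.39 (SD, n = 4) in the controls of 10 months. Each group overlapped its controls, and neighbours in the order of group means differed by less than the smaller SD of the pair.

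**Figure D1:**
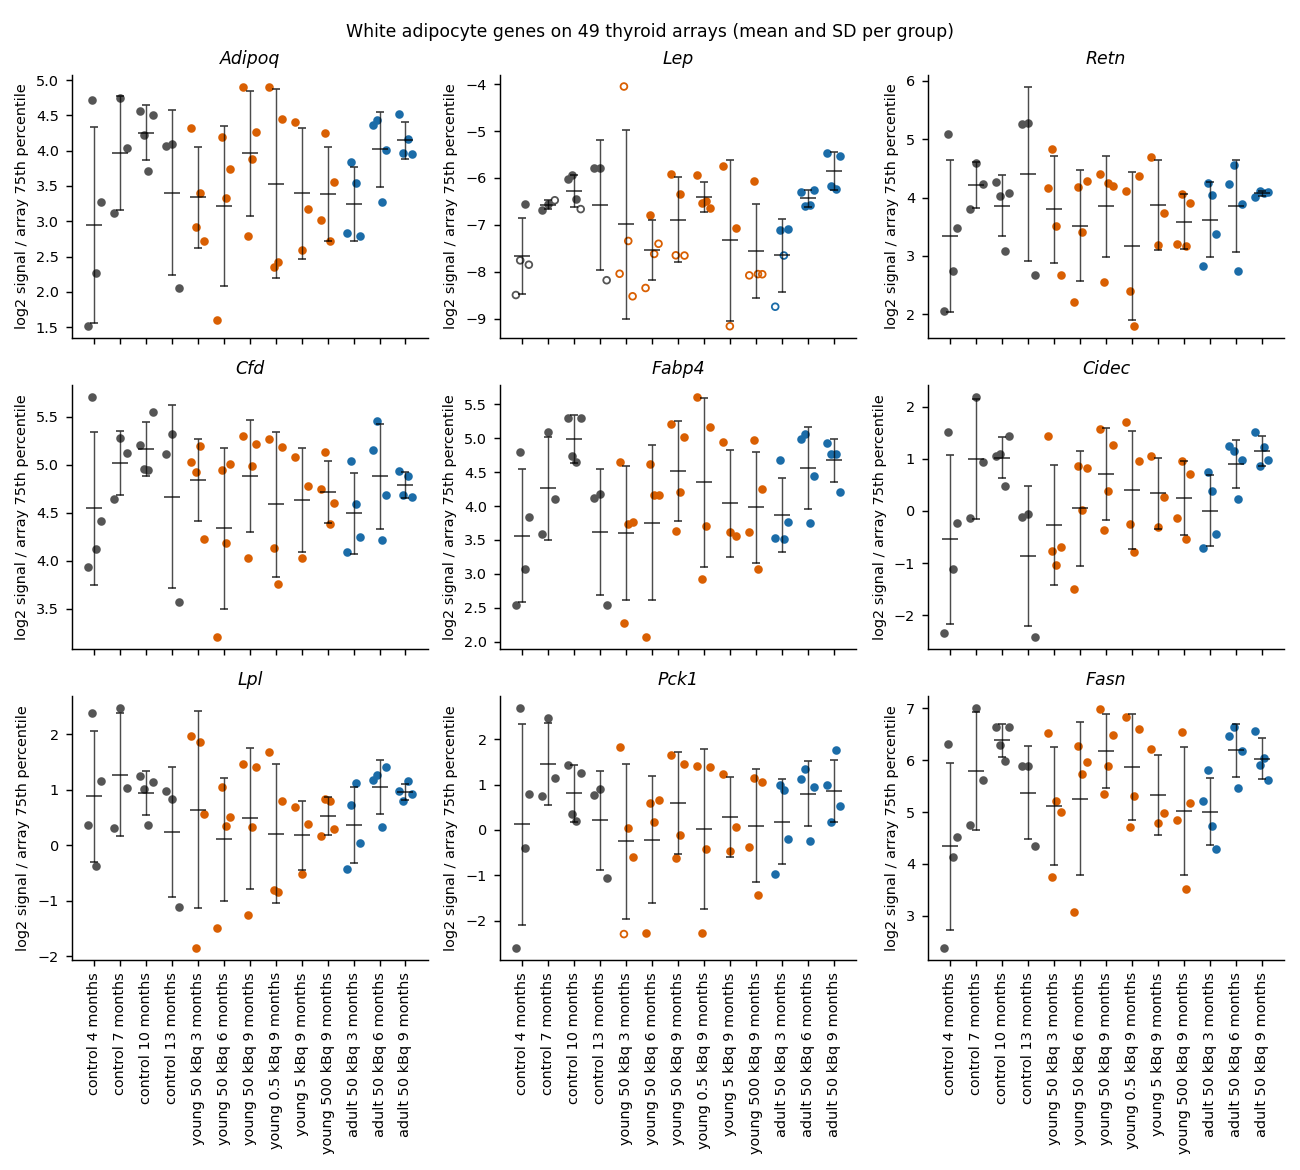
Log2 signal of the 9 members on each array (y axis, relative to the array's 75th percentile) by group (x axis), with filled points for arrays where the probe was well above background, open points elsewhere, and bars for the mean and SD; controls are grey, young rats orange and adult rats blue. Adipoq spans 1.51 to 4.72 within the 4-month controls alone, and most open points are those of Lep.

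Of the other secreted products, Retn varied as widely as Adipoq and Cfd less. Retn, which encodes the hormone resistin, ranged from 1.79 to 5.28, and Cfd, which encodes complement factor D (adipsin), from 3.21 to 5.70. Cfd had the smallest SD within groups, 0.577 log2 units, close to the median of 0.533 over all 25304 probes tested. Pck1, an enzyme of an early step on the path to glycerol phosphate for triglyceride in fat cells, had the largest, 1.28, higher than that of 93.6% of the probes. On the 4 control arrays of 4 months, Pck1 was at -2.60, -0.39, 0.80 and 2.69, a 39.1-fold range without any exposure. Fasn, the fatty acid synthase, was at 2.39, 4.13, 4.51 and 6.32 on these arrays, a 15.3-fold range. Cidec, a protein of the lipid droplet surface that fuses droplets, ranged over 14.4-fold there, Fabp4, the fatty acid carrier of the cytoplasm, over 4.75-fold, and Lpl, the lipase that frees fatty acids from circulating lipoproteins, over 6.82-fold. The median SD within groups of the 9 members was 0.960.

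The members varied together from array to array, in controls and in exposed rats. Over the 49 arrays, the r of Adipoq was 0.924 with Cidec, 0.925 with Fabp4, 0.916 with Fasn, 0.895 with Cfd, 0.883 with Pck1, 0.823 with Retn and 0.779 with Lpl (Pearson, permutation p = 1e-05 and Benjamini-Hochberg adjusted p = 1.38e-05 over 11 pairs for each, 1e-05 being the smallest p that the permutations can give). Spearman's rho for these 7 pairs lay between 0.786 and 0.936, also with permutation p = 1e-05. Without the 2 arrays farthest from the median of Adipoq, the first replicates of the 4-month controls and of the young 50 kBq group at 6 months, r was 0.782 to 0.907. Within the 3 scan dates r was 0.836 to 0.949 (24 arrays), 0.630 to 0.897 (14 arrays) and 0.837 to 0.914 (11 arrays). When the group means were subtracted, so that neither age nor exposure enters, r was 0.833 to 0.953, and without the 3 arrays that stood apart it was 0.909 to 0.971. With group means subtracted, r was 0.921 to 0.989 over the 14 control arrays and 0.798 to 0.935 over the 35 exposed arrays. These 7 pairs kept the sign and a strong r under each of these views.

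Lep had the lowest r with Adipoq among the members. It was 0.508 (rho 0.532, permutation p = 0.00025, adjusted p = 0.000306), 0.431 without the 2 arrays farthest from the median, and 0.610 without the 3 arrays that stood apart. Within the scan dates it was 0.666, 0.132 and 0.563. Of the 28 pairs among the 8 members other than Lep, the median r of deviations from group means was 0.853, and of the 8 pairs with Lep it was 0.273. Without the 3 arrays that stood apart these medians were 0.907 and 0.532. On the dim array Lep read -4.05, its highest value, where the probe was not above background. Lep was undetected on 21 arrays, so its weaker correlation goes together with a signal near background, and the part of that in the correlation was not tested.

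**Figure D2:**
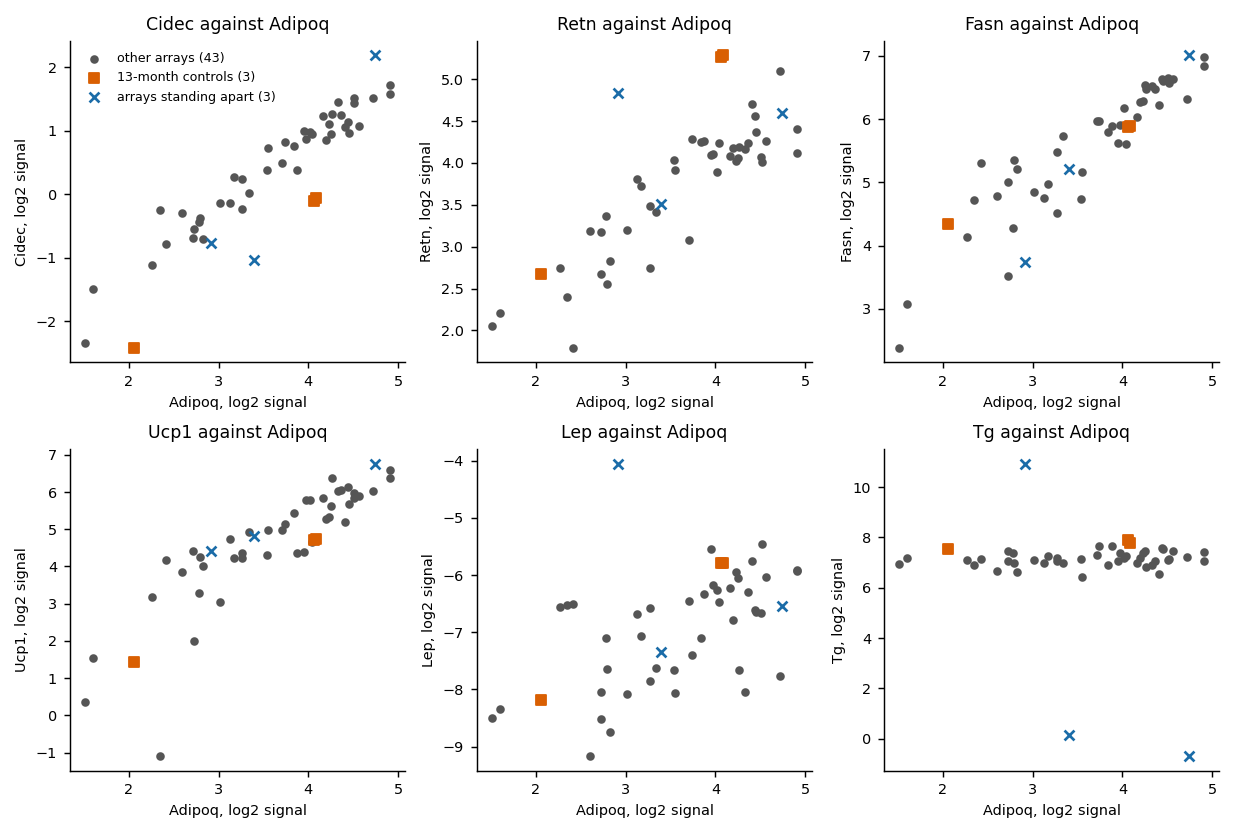
Log2 signal of 6 genes (y axes) against that of Adipoq (x axes), 1 point for each array, with the 13-month controls as squares and the 3 arrays that stood apart as crosses. Cidec, Retn, Fasn and Ucp1 rise with Adipoq (r of 0.924, 0.823, 0.916 and 0.863), Lep less so (0.508), and Tg, the thyroglobulin gene, does not (-0.112).

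The upstream sequence of 4 members is shown because these genes either moved together or, for Lep, did so less closely. Each line is 250 bases before the transcript start that the RefSeq promoter table (GRCr8) uses, 5′ to 3′ on the strand of the gene. That start can lie inside the full extent of the gene, so the window of Cidec falls wholly within its gene, those of Adipoq and Lep hold 75 and 9 bases of it, and that of Pck1 holds none. Capitals mark a C/EBP-type match, TTGCNNAA, or a nuclear receptor half-site, AGGTCA, either one searched on both strands, and TATAAA was searched in the same way. The regions are chr11:91240170-91240419 on the minus strand for Adipoq, chr4:148137116-148137365 on the minus strand for Cidec, chr3:182348322-182348571 on the plus strand for Pck1 and chr4:58626288-58626537 on the plus strand for Lep.
Adipoq: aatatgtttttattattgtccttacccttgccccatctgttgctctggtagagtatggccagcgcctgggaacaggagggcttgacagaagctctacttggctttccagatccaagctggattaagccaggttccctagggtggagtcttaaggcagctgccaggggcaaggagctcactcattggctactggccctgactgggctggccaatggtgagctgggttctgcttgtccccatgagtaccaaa
Cidec: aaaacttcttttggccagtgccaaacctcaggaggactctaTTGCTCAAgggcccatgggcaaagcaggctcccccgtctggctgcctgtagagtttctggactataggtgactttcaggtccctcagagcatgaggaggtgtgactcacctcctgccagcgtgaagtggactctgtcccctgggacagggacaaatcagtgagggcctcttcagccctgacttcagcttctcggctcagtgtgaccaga
Pck1: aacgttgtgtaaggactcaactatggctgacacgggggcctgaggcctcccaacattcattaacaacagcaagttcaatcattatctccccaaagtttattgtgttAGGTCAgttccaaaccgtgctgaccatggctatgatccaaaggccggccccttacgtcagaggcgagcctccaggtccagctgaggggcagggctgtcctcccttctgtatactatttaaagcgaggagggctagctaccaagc
Lep: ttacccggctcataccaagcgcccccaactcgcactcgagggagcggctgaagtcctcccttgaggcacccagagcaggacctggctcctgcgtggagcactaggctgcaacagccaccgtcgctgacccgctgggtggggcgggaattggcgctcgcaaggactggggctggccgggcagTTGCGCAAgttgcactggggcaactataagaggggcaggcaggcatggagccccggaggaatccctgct
Upstream sequence was held for 7 of the 10 members. Matches to TTGCNNAA lay in those of Lep, Cidec and Plin1, 3 of 7, against 9.22% of 33465 promoters of the same length, and matches to AGGTCA in those of Retn and Pck1, 2 of 7, against 14.1%. TATAAA was in none of the 7 and in 12.9% of all promoters. The Lep match, 69 bases before that start, reads the same on both strands. Adipoq had no match to the 3 searched motifs in this window. A match describes letters only, and binding was not measured.

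The genes whose pattern was most like that of the members, were found by the r of deviations from group means over 49 arrays with the mean of the standardized members. Among 11514 genes detected on at least 25 arrays the highest r was that of Aqp7 (0.980), the glycerol channel of fat cells. Next came Mst1 (0.971), which encodes macrophage-stimulating protein, Dgat2 (0.964), an enzyme of the last step of triglyceride synthesis, Nat8l (0.961), which makes N-acetylaspartate, and Slc36a2 (0.958), an amino acid transporter. Pparg (0.953) and Cebpa (0.953), both master regulators of fat cell formation, Dgat1 (0.950), Cesl1 (0.950), a carboxylesterase, and Slc1a3 (0.947), a glutamate transporter, followed. Without the 3 arrays that stood apart these 10 genes had r of 0.952 to 0.982. Among the lowest values were those of Cstpp1 (-0.646), Nup93 (-0.621), a nuclear pore protein, Bpifb2 (-0.601) and Gne (-0.596), an enzyme of sialic acid synthesis. In all, 146 genes had an r over 0.8, the median over all genes was -0.03, and no gene was below -0.8.

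The genes of the fat cell pathways followed the members to different degrees. Of the lipid droplet and lipolysis genes, 6 of 9 had an r over 0.8, among them Pnpla2 (0.928) and Lipe (0.909), which encode the first lipases of lipolysis, and Adrb3 (0.924), the receptor that starts it. Of the fatty acid and triglyceride synthesis genes, 8 of 17 did (12 of 17 without the 3 arrays that stood apart), and the desaturases Fads1 and Fads2 were at -0.187 and -0.242. Of the adipogenic regulators 5 of 8 did, and of the transport genes 5 of 11, among them Gpihbp1 (0.874), the anchor of Lpl in capillaries, and Cd36 (0.807), the fatty acid receptor. None of the 8 genes of leptin and adiponectin reception did, the highest being Adipor2 at 0.530, and the median of that list was 0.122.

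Some brown adipocyte genes moved with the members from array to array. Of 10 compared, 5 had an r over 0.5: Cidea (0.913), Ucp1 (0.863), Plin5 (0.763), Adra1a (0.664) and Cpt1b (0.661). The other 5 included Ppargc1a (0.108) and Zic1 (0.122). Without the 3 arrays that stood apart Otop1, a proton channel, went from 0.400 to 0.811, and the median of the list from 0.531 to 0.742. The r of Adipoq with Ucp1 on the log2 signals was 0.863 (rho 0.916, permutation p = 1e-05, adjusted p = 1.38e-05). The summed signal of the 9 members lay between 4.93 and 8.07 on the log2 scale and that of the 11 brown adipocyte genes with a probe between 4.76 and 8.56, and the part of brown fat in the level of the members was not tested. Of 11 skeletal muscle genes and of 11 thyrocyte genes, none had an r over 0.5 or under -0.5, and their medians were 0.005 and -0.244. The r of Adipoq was -0.112 with Tg (permutation p = 0.459, adjusted p = 0.504) and 0.199 without the 3 arrays that stood apart. With Acta1 it was 0.003 (permutation p = 0.984, adjusted p = 0.984), and within scan dates -0.028, -0.276 and 0.768. No gene had an r over 0.5 among 9 fibroblast, 8 endothelium, 7 macrophage, 2 lymphocyte, 4 squamous epithelium, 4 cartilage and 4 parathyroid genes compared. The lymphocyte, squamous epithelium and cartilage lists held 8, 8 and 6 genes, of which the others were not detected on enough arrays or had no probe. Without the 3 arrays that stood apart, the fibroblast genes Col3a1 (0.575), Pi16 (0.540) and Col1a2 (0.532) and the endothelium gene Cd300lg (0.501) were over 0.5. Of 6 Schwann cell genes 2 passed it, S100b (0.834), which fat cells also express, and Pmp22 (0.600).

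**Figure D3:**
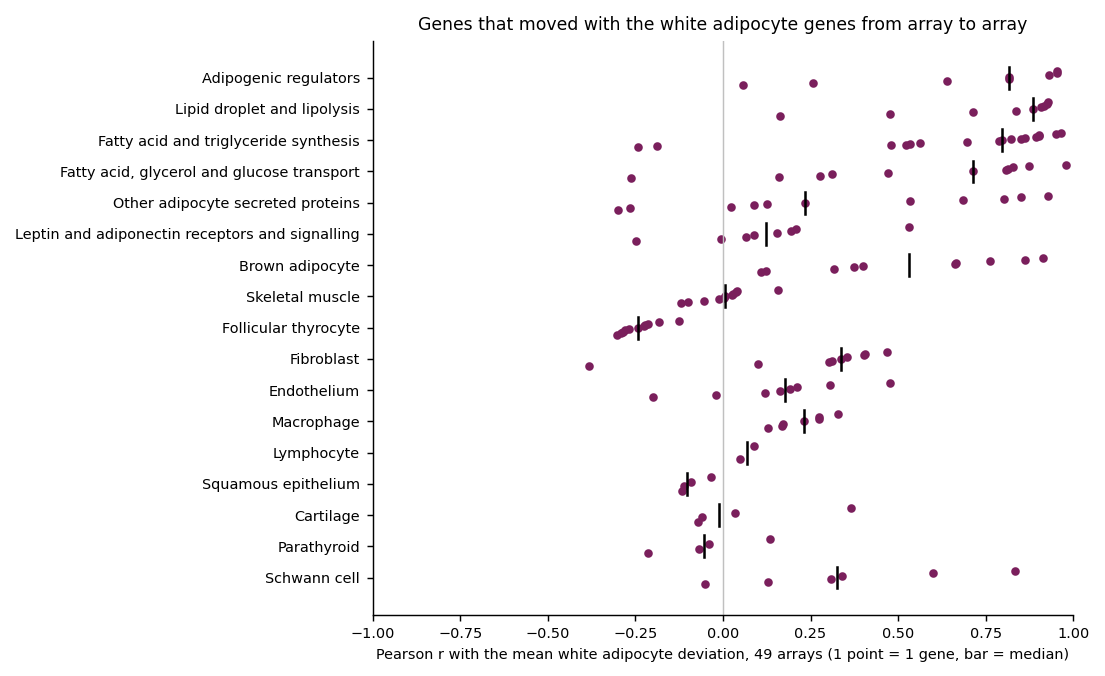
Pearson r of each gene with the mean deviation of the members over 49 arrays (x axis), by gene list (y axis), with 1 point for each gene and a bar at the median. The median is 0.885 for lipid droplet and lipolysis genes and -0.244 for thyrocyte genes.

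The study asked whether 131I changes expression in the thyroid of young and adult rats. None of the 9 members passed the test in any comparison with age-matched controls (limma on all 49 arrays, adjusted p below 0.01 over 25304 probes and fold change above 1.5). The share of all probes called was 0% at 0.5 kBq and 500 kBq, 0.0119% at 5 kBq and at 50 kBq in young rats at 9 months, 0.0158% at 3 months and 0% at 6 months after 50 kBq to young rats, 0% at 3 and 6 months and 0.557% at 9 months after 50 kBq to adult rats. These shares moved with the array left out: the 4 probes called at 3 months in young rats became 4270 without replicate 1 of that group and 3779 without replicate 4. Over these 9 comparisons, 1 member had an unadjusted limma p below 0.05. The share of all probes with such a p ran from 0.79% in adult rats at 6 months to 37.9% in young rats at 3 months after 50 kBq. Exact two-sided permutation tests, 108 over the members and 12 comparisons including those of age, gave no p below 0.05. The smallest p such a test can give is 0.0286 for 4 against 4 arrays and 0.0571 for 4 against 3, so the latter cannot pass 0.05.

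At 9 months after injection of young rats, the members were lower in nearly every exposed group than in the 10-month controls, and none passed the test. The median log2 difference of the 9 members was -0.64 at 0.5 kBq and -0.29 at 50 kBq, and it was -0.77 both at 5 kBq and at 500 kBq, while the median of all probes lay between -0.02 and 0.06. Leaving out 1 array moved the median of the members to between -1.05 (without replicate 1) and -0.32 (without replicate 2) at 0.5 kBq, to between -1.03 and -0.36 (without replicate 2) at 5 kBq, to between -0.60 and 0.07 (without replicates 1 and 2) at 50 kBq and to between -1.06 and -0.51 (without replicates 2 and 3) at 500 kBq. These 4 comparisons share the same 4 control arrays, whose Adipoq mean was the highest of the 13 groups. All 9 members were below 0 at 0.5, 50 and 500 kBq and 8 of 9 at 5 kBq. Within scan dates that held both groups the medians were -1.03 (3 exposed against 3 control arrays) and 0.52 (1 against 1) at 0.5 kBq. They were -1.50 (1 against 3) and -0.21 (1 against 1) at 5 kBq, and 0.18 (2 against 3) and -0.48 (2 against 1) at 50 kBq. At 500 kBq the only such date, with 1 array a group, gave 0.47. The direction held on each shared date at 5 kBq only. Most of these medians rest on 1 array in a group, so they cannot set 5 kBq apart from the other activities.

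Fasn had the lowest estimate of these comparisons. In the 500 kBq group it was at 3.53, 4.84, 5.17 and 6.54, against 5.98, 6.29, 6.64 and 6.65 in the controls. Of the 4 exposed arrays, 3 lay below all the controls and the remaining one among them. The log2 difference was -1.37 ± 0.69 (SE, 95% interval -2.76 to 0.02, limma adjusted p = 1.00, exact permutation p = 0.0857). Lep was detected on 1 of 4 arrays at 500 kBq and 3 of 4 control arrays, at -8.08, -8.05, -8.05 and -6.06 against -6.67, -6.46, -6.03 and -5.95, a difference of -1.29 ± 0.67 (SE, limma adjusted p = 1.00) that rests on values not well above background. Retn, at 3.18, 3.20, 3.91 and 4.06 against 3.09, 4.03, 4.07 and 4.26, differed by -0.27 ± 0.61 (SE, limma adjusted p = 1.00). Of the 4 arrays at 500 kBq, 3 were scanned on a date that held no 10-month control. Activity and scan date cannot be told apart for them. On the only shared date, with 1 array a group, all 9 members were higher at 500 kBq.

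No trend with activity was found for the members. Over the 15 exposed arrays of young rats at 9 months, the slopes per 10-fold of activity lay between -0.31 (Lep) and 0.13 (Retn), with a median of 0.01, and limma adjusted p was 1.00 for each. The slope test called 0% of 23140 probes. For Adipoq the slope was 0.01 ± 0.20 (SE, 95% interval -0.42 to 0.43).

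After 50 kBq to young rats, the members lay on both sides of 0 at 3 months and below 0 at 6 months. At 3 months the median difference from the 4-month controls was 0.30, equal to the median of all probes (0.30), and without the dim array and the arrays low in thyroglobulin it was 0.50. The 2 shared scan dates gave medians of -0.11 and 0.81. Lep was not well above background on any of the 4 exposed arrays, so no fold is given for it there. At 6 months all 9 members were below the 7-month controls, with a median of -0.75, -0.50 without the control array low in thyroglobulin and -0.30 without replicate 1 of the exposed group; no scan date held both groups. Pck1 was at -2.29, 0.18, 0.60 and 0.65 against 0.75, 1.15 and 2.48, and Lep at -8.35, -7.62, -7.40 and -6.78 against -6.68, -6.55 and -6.48. These 2 members did not overlap between the groups, as 7.83% of all probes did not. The Pck1 difference was -1.67 ± 0.96 (SE, limma adjusted p = 0.813, exact permutation p = 0.0571). Its control value of 2.48 comes from the array low in thyroglobulin, and Lep was detected on 1 of the 4 exposed arrays.

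After 50 kBq to adult rats, all 9 members were below the 7-month controls at 3 months, with a median of -0.78, and -0.39 without the array low in thyroglobulin. The shared scan date gave -0.38. Both this comparison and that of young rats at 6 months use the same 3 control arrays. Lep alone did not overlap, at -8.75, -7.66, -7.11 and -7.09 against -6.68, -6.55 and -6.48, beside 7.65% of all probes. It was detected on 2 of the 4 exposed and 2 of the 3 control arrays, so this separation rests partly on values not well above background. At 6 months the median was -0.16, with members from -0.43 to 0.10. Cidec was at 0.23, 0.98, 1.14 and 1.25 there, against 0.49, 1.06, 1.10 and 1.44 in the 10-month controls, so the ranges nearly coincided. The scan date shared by 2 exposed arrays and 1 control gave a median of 0.52, and the other shared date -0.05.

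At 9 months after 50 kBq to adult rats, Cidec had the highest estimate of any comparison with controls. Its values were 0.87, 0.99, 1.23 and 1.51 in the exposed rats and -2.42, -0.11 and -0.06 in the 13-month controls. The groups did not overlap, and all 3 controls were below every exposed array. The log2 difference was 2.01 ± 0.72 (SE, 95% interval 0.56 to 3.46, limma adjusted p = 0.0884, exact permutation p = 0.0571, the smallest p possible). Fabp4 also did not overlap, at 4.21, 4.77, 4.77 and 4.94 against 2.54, 4.12 and 4.18 (log2 difference 1.06 ± 0.62 SE, limma adjusted p = 0.328). Of all probes 26.1% did not overlap in this comparison and 21.9% had an unadjusted p below 0.05, against 2 and 1 of the 9 members, so neither count was above the background. Leaving out replicate 3 of the controls brought the Cidec difference to 1.23 (limma adjusted p = 0.374), and counting the closest pair of controls as 1 array brought it to 2.40 (adjusted p = 0.178). With scan date as a block it was 1.99 (adjusted p = 0.155), and the median of the members was 0.73 over all arrays, 1.19 within the shared scan date and 0.06 without replicate 3 of the controls. Without the dim array and the arrays low in thyroglobulin, which lie in other groups and enter through the shared variance, the adjusted p was 0.0363.

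The controls of 13 months differed in the relation of Cidec and Retn to Adipoq from the arrays other than the 3 that stood apart. Cidec minus Adipoq on the same array was -4.47, -4.18 and -4.14 there, below the -3.85 to -2.61 of the 43 arrays outside that group and the 3 arrays that stood apart. Retn minus Adipoq was 0.63, 1.19 and 1.20, against -0.79 to 0.68, so 2 of 3 arrays lay above the range and the third within it. The 2 arrays above the range are the closest pair. Arrays that stood apart, in the young 50 kBq group at 3 months, reached -4.44 for Cidec minus Adipoq and 1.92 for Retn minus Adipoq. The relation was therefore not particular to the 13-month controls. The difference of these controls was chosen after its values were seen and has no test. Acta1 was low on the 3 arrays of the 13-month controls, as given above, and the summed signal of 11 skeletal muscle genes was 7.46 to 8.13. In the adult group at 9 months it was 10.11, 10.31 and 10.46 on 3 arrays and 1.68 on replicate 3, where Acta1 was at -3.17, its lowest value of the 49 arrays. The summed brown adipocyte signal was 4.76 to 6.42, against 6.96 to 7.54 in the adult group at 9 months, with no overlap. Of all single probes, 26.1% did not overlap between these groups. Within the brown adipocyte list, Ucp1 did overlap, at 1.43 to 4.73 in the controls against 4.40 to 5.84. Cidea did too, at 2.75 to 4.94 against 4.76 to 5.68. The part of muscle or of brown fat in the Cidec difference was not tested.

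**Figure D4:**
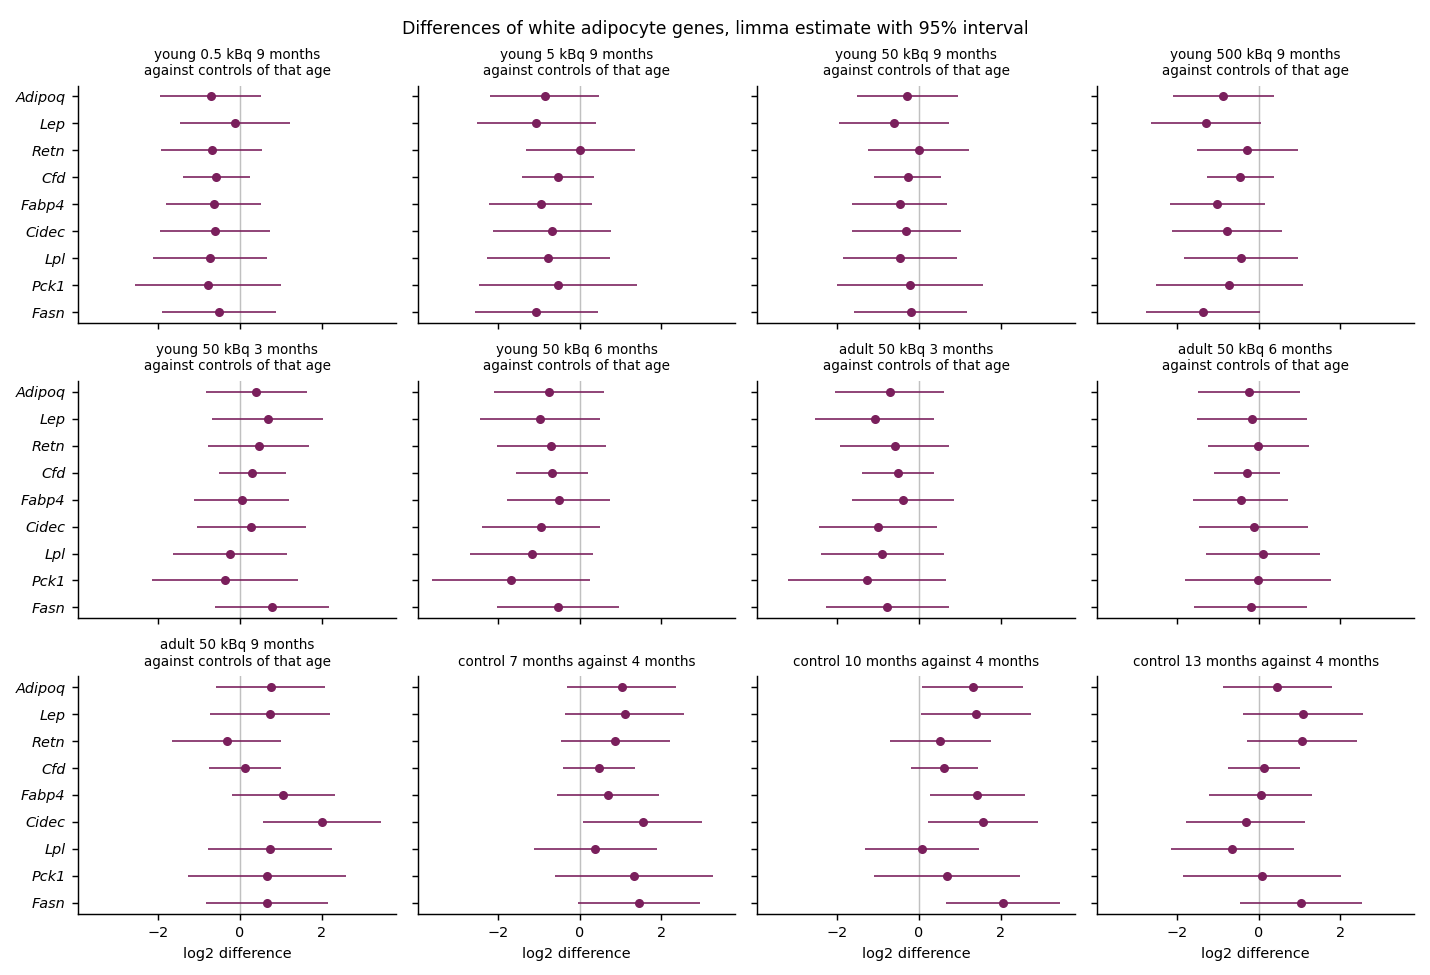
Log2 difference of each member (x axis) with its 95% interval from limma, for the 9 comparisons with age-matched controls and the 3 comparisons of older with 4-month controls. Most intervals include 0; that of Cidec after 50 kBq to adult rats at 9 months runs from 0.56 to 3.46, and that of Fasn in 10-month against 4-month controls from 0.66 to 3.44.

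With age, the members were higher in the untreated controls of 7 and 10 months than in those of 4 months, and none passed the test. The 3 comparisons share the 4-month controls, whose Adipoq values had the widest spread of the 13 groups. At 7 months all 9 were above 0, with a median of 1.03 (0.68 without the array low in thyroglobulin, 0.44 without replicate 1 of the 4-month controls, 0.75 within the shared scan date) beside 0.10 for all probes, and 1 member, Cidec, had an unadjusted p below 0.05, as did 7.62% of all probes. At 10 months all 9 were above 0, with a median of 1.31 (0.83 without replicate 1 of the 4-month controls) beside -0.02 for all probes. There, 5 of the 9 members (Adipoq, Lep, Cidec, Fabp4 and Fasn) had an unadjusted p below 0.05, as did 3.64% of all probes. As the members move together from array to array, these 5 are not 5 separate observations. Fasn was at 5.98, 6.29, 6.64 and 6.65 at 10 months against 2.39, 4.13, 4.51 and 6.32 at 4 months, a log2 difference of 2.05 ± 0.69 (SE, 95% interval 0.66 to 3.44, limma adjusted p = 0.774, exact permutation p = 0.0857). Of the 4-month control arrays, 3 lay below all those of 10 months, and replicate 2 of the 4-month controls lay among them. The scan date shared by 3 and 2 of these arrays gave a median of 1.31 over the members. The share of probes called was 0.00395% at 7 months and 0.0119% at 10 months.

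At 13 months the members did not share a direction against the controls of 4 months. Retn and Lep were the highest, at 1.06 ± 0.66 and 1.08 ± 0.72 (SE), and Lpl the lowest, at -0.65 ± 0.74, with limma adjusted p of 0.255, 0.293 and 0.567. Lep was detected on 2 of 3 arrays at 13 months and on 1 of 4 at 4 months, so its difference rests on values not well above background. The median was 0.12 (-0.19 and 1.05 within the shared scan dates), beside 0.19 for all probes, of which 5.15% were called. That background fell from 1302 called probes to 4 when the closest pair was counted as 1 array. Of the 65 genes tested in the 6 fat cell pathway lists, 2 passed the test here, both lower at 13 months, and none in any of the other 11 comparisons. They were Klf15 (log2 difference -1.64 ± 0.34 SE, limma adjusted p = 0.00266), a transcription factor of fat and muscle, and Vldlr (-2.49 ± 0.54 SE, adjusted p = 0.00305), a lipoprotein receptor of fat, heart and muscle. With the closest pair counted as 1 array, neither passed (adjusted p = 0.0295 and 0.0266). Of the brown adipocyte list, Fabp3 and Cox8b, which heart or muscle also express, were lower at 13 months (-2.84 ± 0.54 and -1.71 ± 0.44 SE, adjusted p = 0.00155 and 0.00858), and Fabp3 was higher in the adult group at 9 months than in the 13-month controls (2.55 ± 0.54 SE, adjusted p = 0.00752); none of the 3 passed with the pair counted as 1 array. The muscle gene Myh7 fell by 7.43 on the log2 scale (adjusted p = 0.00615), Col1a1 of fibroblasts and Pmp22 of Schwann cells fell by 1.87 and 1.17 (adjusted p = 0.00462 and 0.00594), and Kdr of endothelium rose by 1.08 (adjusted p = 0.00492), and these 4 also did not pass with the pair counted as 1 array.

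Lep was detected more often on arrays of older rats. Without the dim array, it was well above background on 1 of 7 arrays at 4 months of age, 5 of 11 at 7 months, 16 of 23 at 10 months and 6 of 7 at 13 months, with controls and exposed rats pooled. The median log2 signals were -7.85, -7.11, -6.53 and -5.79 in that order. The median 75th percentile of the arrays was 2489, 2881, 2802 and 2426 in the same order, and the part of array brightness in the detection was not tested. On the 28 arrays where it was detected Lep was at -7.11 to -5.46, and on the 20 others at -9.16 to -6.48, so the 2 ranges overlap. Age and time after injection are tied in the exposed rats, and this order was seen in the values before it was counted, so it has no test. In the controls alone, Lep was detected on 1 of 4, 2 of 3, 3 of 4 and 2 of 3 arrays, with means of -7.67 ± 0.81, -6.57 ± 0.10, -6.28 ± 0.34 and -6.58 ± 1.38 (SD).

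**Figure D5:**
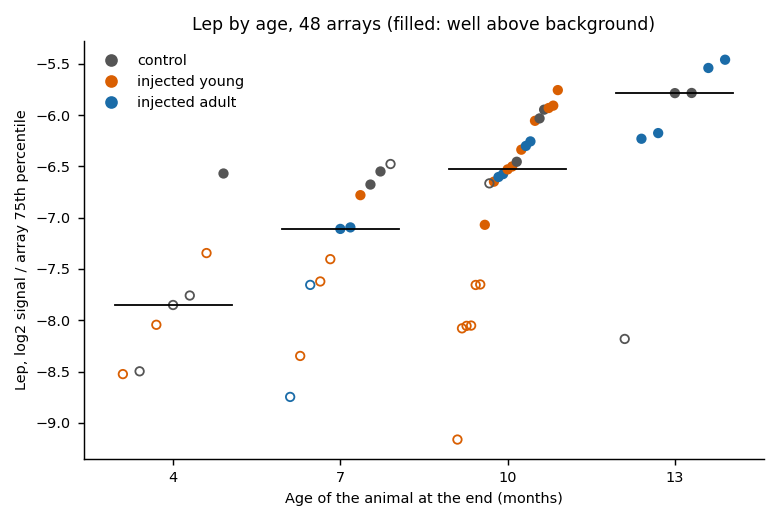
Log2 signal of Lep on 48 arrays (y axis) by age of the animal (x axis, months), with filled points where the probe was well above background and a bar at the median of each age. The medians are -7.85, -7.11, -6.53 and -5.79.

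Whether the response to 131I differed between ages at injection or between times was tested as a difference of differences. No member passed, and 0% of all probes were called in each of the 4 tests. Between young and adult rats at 3 months, leaving out 1 array gave up to 277 called probes, without replicate 4 of the young group. Between young and adult rats given 50 kBq, the median of the members was 1.04 at 3 months, -0.69 at 6 months and -1.04 at 9 months. The medians of all probes there were 0.41, -0.13 and 0.19. Between 9 and 3 months in young rats the median of the members was -0.58, beside -0.25 for all probes. The test of young against adult rats at 3 months used all 3 arrays that stood apart. Leaving out 1 array moved the 4 medians of the members, in that order, to between 0.62 and 1.71, without replicates 1 and 2 of the 4-month controls, between -0.91 and -0.25, the latter without replicate 1 of the young group, between -1.38 and -0.36, the latter without replicate 3 of the 13-month controls, and between -1.04 and -0.18, without replicates 2 and 1 of the 4-month controls. At 9 months, 1 member, Cidec, had an unadjusted p below 0.05 (log2 difference -2.32 ± 0.98 SE, limma adjusted p = 0.296), as did 13.3% of all probes, and this test uses the 13-month controls.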

How the data were processed

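Thyroid RNA was measured on 49 one-colour arrays, taken as 1 rat each. The authors deposited the scanner output of Agilent Feature Extraction (10.7.3.1), whose processed signal is a background-subtracted intensity, not scaled between arrays. The deposited 0 or 1 marks for detection, saturation and outliers, another unit, were set by that software. The authors also deposited a table of their own fold changes, which was not used. Their processing notes name Partek, with no version.

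Outlier and control spots were left out, the log2 of the intensity was taken and reduced by the 75th percentile of its array, and spots of a probe were averaged. Probes were named through RefSeq accessions (17990 of 30367 had 1 symbol), and the probe with the highest mean stood for a gene. Probes detected on at least 3 arrays entered limma 3.58.1 (R 4.3.3), with 1 mean for each group over 49 arrays, Benjamini-Hochberg adjustment over 25304 probes, and calls required a fold change above 1.5 with an adjusted p below 0.01. Further work used Python 3.11.15 and scipy 1.17.1, with 100000 permutations for correlations. Named genes were the members, 10 other genes with the highest and 5 with the lowest r, and listed genes that passed the test; some of the genes that this rule or the lists named are not reported here. The members and lists were chosen with earlier results of these data known. Tested on simulated data with independent noise for each probe and array, the fit recovered the changed probes increasingly with the size of the change. That setting held no dim array, close pairs or genes that move together, so it does not give the recovery in these data. Groups of 3 or 4 arrays limit the precision. The p-values measure the spread between arrays, which the labels number as replicates and which were taken as separate animals. For the closest pairs the labels do not settle this. Alternatives tried were quantile normalization, normexp background correction (on the median signal, since the files hold no mean signal), other filters and thresholds, a block for slide, for scan date or for replicate number, array weights, the mean over the probes of a gene, only the groups compared, and leaving out each array. Chosen after seeing the data were the fits without the arrays that stood apart and with the closest pairs averaged. Sequences are from RefSeq, GRCr8. No per-sample column outside the series was present.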

Additional observations from a re-analysis of the deposited data

Results flagged for a closer look

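Within groups of 4 arrays, the gap between the outermost array and its neighbour was tested against the range of the group for 90 combinations of member and group, and 5 exceeded the critical value, where chance gives about 1 in 20, or 4.5. Lep was at -6.06 on replicate 2 of the young 500 kBq group, against -8.08 to -8.05 on the other 3, and it was the only one of the 4 where the probe was well above background. Cidec was at 1.45 on replicate 1 of the young 50 kBq group at 3 months, against -1.04 to -0.69 on the others, which include the dim array and an array low in thyroglobulin. Retn was at 2.56 on replicate 2 of the young 50 kBq group at 9 months, against 4.19 to 4.40. On replicate 1 of the young 50 kBq group at 6 months, Pck1 was at -2.29 against 0.18 to 0.65 and Fasn at 3.08 against 5.73 to 6.27, and all 8 members other than Lep were among the 3 lowest of 49 arrays there.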

How the results depend on the processing

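No member was called in any comparison under the alternatives tried, with 1 exception. With array weights, whose estimate stopped before convergence, 1 member was called in 13-month against 4-month controls: Retn, at 1.85 (limma adjusted p = 0.00745; 0.0516 to 0.627 under the other alternatives for this result). With array weights, the median of the members moved to 0.18 for adult rats at 3 months and to -0.16 for young minus adult at 3 months, beyond the spread between arrays. Of 774 counts and medians over the members, 771 stayed within that spread or at the same count. Every pair of same-numbered arrays had a correlation over 0.1 in 1 of 12 comparisons, young 50 kBq at 6 months. There the 3 pairs had correlations of 0.14 to 0.33, and the replicate block gave a median of -0.79. In 10-month against 4-month controls 3 of 4 pairs passed 0.1, up to 0.43, and the block gave 1.31. In adult rats at 3 months 2 of 3 pairs did, up to 0.42, and the block gave -0.81. Over all comparisons 14 of 42 pairs had a correlation over 0.1 (from -0.52 to 0.50), and the labels tie no number to a shared animal, litter or day. With the replicate block, 0 members were called and no median moved by more than 0.103. The slide block leaves the dim array, alone on its slide, without weight. Leaving out 1 array changed the sign of the median for young 50 kBq at 9 months (-0.60 to 0.07), young 50 kBq at 3 months (-0.08 to 0.69), adult 50 kBq at 6 months (-0.30 to 0.04), 13-month against 4-month controls (-0.20 to 0.94) and the slope (-0.11 to 0.13), and in no other comparison. With quantile normalization the median for young 50 kBq at 3 months was -0.14, and with the closest pair counted as 1 array that of 13-month against 4-month controls was -0.15. The number of probes called in 13-month against 4-month controls was 1302, and under alternatives other than leaving out an array it was from 0, with only the groups compared, to 9283, with array weights; it was 4 with the closest pairs counted as 1. In adult rats at 9 months it was 141, and 0 to 8356 under the same alternatives. Leaving out 1 array gave 11 (without replicate 1 of the 13-month controls) to 2080 and 0 to 893 (without replicate 3 of the adult group) in these comparisons. With array weights the number went from 0 to 7277 for young rats at 6 months and to 7598 for adult rats at 3 months, from 1 to 7149 for 7-month against 4-month controls, from 0 to 160 at 500 kBq, from 3 to 43 at 5 kBq, and from 0 to 1116, 5002 and 6680 for young minus adult at 3, 6 and 9 months. With an adjusted p below 0.05 it was 4284 for young rats at 3 months, and without the dim array and the arrays low in thyroglobulin 567 for young minus adult at 9 months. The cause was not tested. The signal over background limits Lep, and in the young 50 kBq group at 3 months also Pck1, which was detected on 3 of 4 arrays there.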
